A study of Mus with 4 samples.

Results

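Insr, Irs1, Irs2, Pik3r1, Pik3ca, Akt1, Akt2, Foxo1 and Slc2a4 are 9 genes at the core of insulin signalling. They were chosen by name, and every N6-methyladenosine (m6A) peak listed under one of these symbols in interscapular brown adipose tissue (iBAT) was taken. They carried 26 of 18400 m6A peaks in Wtapflox/flox mice and 28 of 18693 in Wtap-BKO mice, and in either genotype 10105 gene symbols had a peak. None of the 9 lacked a peak in either list.

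The peaks came from MeRIP-seq, in which fragmented poly(A)+ RNA is pulled down with an antibody against m6A and compared with input RNA. All mice were C57BL/6, aged 8 weeks and fed normal chow. Both genotypes carry floxed Wtap alleles, and Wtap-BKO mice in addition carry a Ucp1-iCre transgene. The Ucp1 promoter is active in brown adipocytes, so the other cells of iBAT keep Wtap, and Wtapflox/flox mice without Cre were the controls. Each genotype gave a pool of 8 mice, from which 1 immunoprecipitated (IP) and 1 input library were made. With 1 pool per genotype there was no replicate, so no difference below could be set against the spread between mice and none was tested.

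Insulin binds a receptor tyrosine kinase, which phosphorylates insulin receptor substrates, and these recruit phosphoinositide 3-kinase (PI3K). The lipid made by PI3K activates AKT kinases, which send the glucose transporter GLUT4 to the cell surface and keep the transcription factor FOXO1 out of the nucleus. Brown fat takes up much glucose in response to insulin. WTAP is a regulatory subunit of the METTL3-METTL14 complex that writes m6A, a mark often found on long internal exons and around stop codons.

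All 9 genes with a control peak also had a Wtap-BKO peak, beside 84.5% of the 8770 symbols with a control peak. Summed over these genes, as over all symbols, the peaks covered fewer exonic bases in Wtap-BKO. Most control peaks found there had a counterpart with a weaker false discovery rate, as did 54.1% of all found control peaks. Exonic bases under a peak summed to 13123 in Wtapflox/flox and 10490 in Wtap-BKO. Over all symbols the sums were 5.43e+06 and 4.93e+06. The largest falls among the 9 genes were on Irs2 (3812 and 2673 bases) and Insr (1709 and 752). Of the 9 genes' bases, 8685 lay under a peak in both lists. This is 66.2% of the control bases, against 62.1% over all symbols. In 6 of 9 genes the Wtap-BKO peaks covered fewer bases, beside 54% of the 7409 symbols with peaks in both lists, and the lowest ratios were those of Slc2a4 (0.412) and Insr (0.440). Akt2 was among the 6 by a single base, with 362 in controls and 361 in Wtap-BKO. Pik3r1, Pik3ca and Akt1 had more bases covered in Wtap-BKO, as did 42.1% of all such symbols. The strongest of the 26 control peaks by false discovery rate (FDR) was the downstream peak of Slc2a4, which encodes GLUT4, and it had no counterpart in Wtap-BKO.

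**Figure D1:**
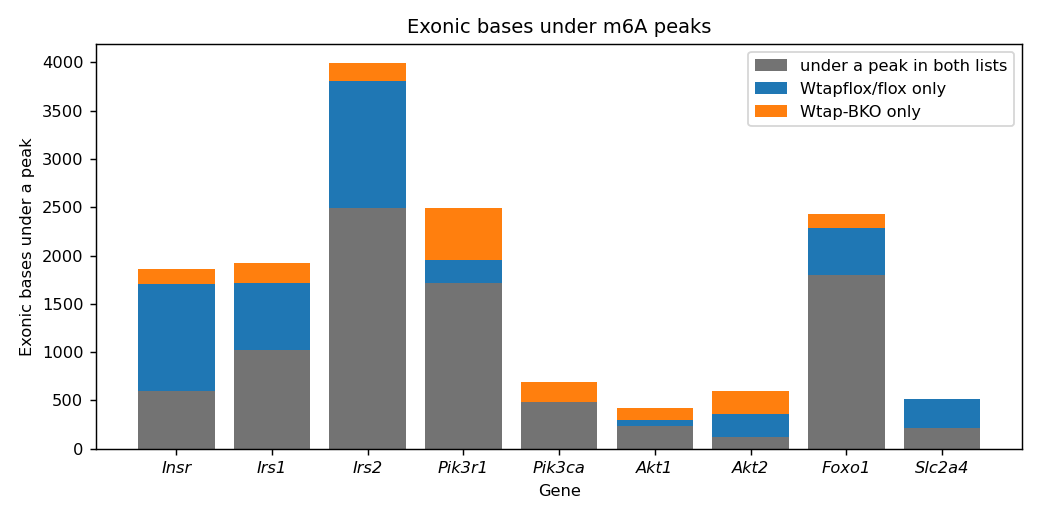
Exonic bases under m6A peaks (y axis) for each of the 9 genes (x axis), split into bases under a peak in both lists (grey), in Wtapflox/flox only (blue) and in Wtap-BKO only (orange), with 1 pooled sample per genotype and therefore no error bars. Insr, Irs1 and Irs2 have the tallest blue segments (1108, 691 and 1318 bases), Pik3r1 the tallest orange one (541 bases), and Slc2a4 no orange segment.

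Peaks were matched between genotypes by strand and exonic position, with 1 common base being enough. Of the 26 Wtapflox/flox peaks, 19 were found in Wtap-BKO (73.1%, 95% Wilson interval 53.9 to 86.3) and 7 were not, beside 32.2% not found among all Wtapflox/flox peaks. Of the 28 Wtap-BKO peaks, 20 were found in Wtapflox/flox (71.4%, interval 52.9 to 84.7) and 8 were not, beside 32% of all Wtap-BKO peaks. Both shares were near those of the whole lists. The 7 control peaks not found lay on 6 genes, Insr, Irs1, Irs2, Akt2, Foxo1 and Slc2a4, beside 45.7% of all symbols with a control peak. The 8 Wtap-BKO peaks not found lay on 7 genes, Insr, Irs1, Pik3r1, Pik3ca, Akt1, Akt2 and Foxo1, beside 47.5% of all symbols. With both lists limited to an FDR under 1e-05, the genes with an unmatched peak were 7 of 9 in controls, beside 44.1% of all symbols at that limit, and 3 of 8 in Wtap-BKO (Pik3r1, Pik3ca and Akt2), beside 37.4%. The genes carried a median of 3 peaks in each list, against 2 over all symbols.

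Control peaks without a counterpart had a log10 FDR between -254 and -2.77 with a median of -12.6, and Wtap-BKO peaks without one lay between -7.12 and -2.12 with a median of -3.50. Over all genes the medians of unmatched peaks were -4.05 and -3.42, and the control peaks of the 9 genes were strong in general, with a median of -45.2 against -7.75 for all control peaks. At an FDR under 1e-20, 3 of 16 control peaks (on Irs1, Akt2 and Slc2a4) had no Wtap-BKO counterpart at any FDR, beside 10.7% of all such peaks. In the other direction 0 of 9 Wtap-BKO peaks at that FDR lacked a control counterpart, which allows a share of up to 29.9% by the Wilson interval, beside 2.47% of all such peaks. The gap between genotypes in this count therefore ran the same way over the whole lists.

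Strength also differed in the 19 control peaks that were found, 6 of which lay on Irs2 alone. In 17 of the 19 the Wtap-BKO peak had a weaker FDR, beside 54.1% of all found peaks, and in 16 the fold enrichment of IP over input was lower, beside 63.7%. The median ratio of Wtap-BKO to control fold was 0.522 for these genes and 0.783 over all found peaks. Stronger control peaks more often had a weaker counterpart over the whole list too: among the 13 found peaks with an FDR under 1e-20, the counterpart was weaker in 12, beside 73.9% of all such peaks, and lower in fold in 11, beside 80.3%. Since FDR and fold come from lists called separately, each peak was also ranked within its own list. An FDR also depends on the number of reads on a transcript, and ranking does not adjust for that. The lists give no transcript levels, and the part of these in the differences of FDR was not tested. By rank the Wtap-BKO peak was weaker in FDR in 14 of 19, beside 44%, and lower in fold in 14 of 19, beside 49.2%. Among the 13 peaks with an FDR under 1e-20 both counts were 10, beside 59.7% and 67.5%. In 12 of the 19 pairs the Wtap-BKO peak was shorter, beside 47.8%, in 4 it was longer and in 3 it had the same length. Among the 13 peaks with an FDR under 1e-20 it was shorter in 9, beside 63.6% of all such peaks.

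**Figure D2:**
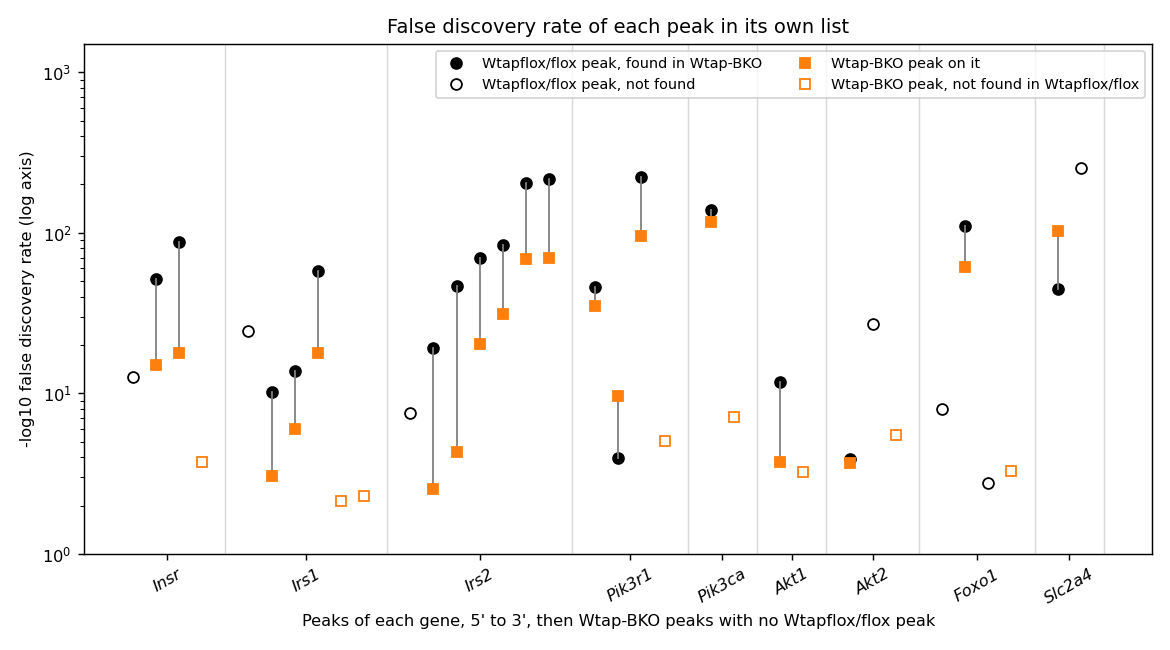
Negative log10 FDR of each peak on a log axis (y axis), with the control peaks of each gene ordered from 5′ to 3′ and its unmatched Wtap-BKO peaks after them (x axis), control peaks as circles, Wtap-BKO peaks as squares, a line joining a control peak to the Wtap-BKO peak that shares most bases with it, and open symbols for peaks not found in the other list. Of the 19 joined pairs 17 run downward from circle to square, the second Pik3r1 peak and the 5′ Slc2a4 peak run upward, and the highest open circle is the downstream Slc2a4 peak at a log10 FDR of -254.

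The read depth behind the lists is unknown, and a missing peak means only that none passed the authors' limit of 0.05 on the FDR. A peak does not measure how much of a transcript was present. The 16 brown adipocyte markers, Ucp1 among them, carried peaks in 16 (control) and 15 (Wtap-BKO) genes, so the labelled tissue's markers were present. Their summed covered bases went from 12023 to 9653. Gene by gene they were mixed, with 8 having fewer and 6 more bases in Wtap-BKO. Their median ratio of 0.973 was close to the 0.933 over all symbols. Marker sets of other cells had more summed bases in Wtap-BKO. Macrophage genes with a peak numbered 10 and 14 of 15 (4454 and 9536 bases), and lymphocyte genes 3 and 8 of 15 (632 and 3147 bases). Fibroblast genes with a peak numbered 10 and 10 of 12 (5039 and 8094 bases), and skeletal muscle genes 6 and 15 of 19 (898 and 4939 bases). No peak was listed in either genotype for the macrophage marker Adgre1 or the T cell marker Cd3e. From peaks in a bulk tissue, the number of cells of a type and the RNA per cell cannot be told apart. The paper reports higher proportions of macrophages and T/B lymphocytes in Wtap-BKO iBAT, from single-nucleus RNA sequencing. The part of shifts in cell types in the insulin genes' peaks was not tested. Wtap itself carried 4 peaks in each list, all found in the other. The first was at a log10 FDR of -4.68 in controls and -6.99 in Wtap-BKO, and the others were weaker in Wtap-BKO, at -40.7, -63.1 and -32.7 against -6.67, -11.3 and -4.24, with folds of 23.1, 10.9 and 6.72 against 6.26, 3.51 and 1.72. These values do not check the genotype, since a peak gives no transcript level.

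Positions are given on GRCm38 and 1-based, and distances run from the middle exonic base of a peak to the RefSeq end of its gene. The gene table used holds gene spans only, so peaks were not assigned to coding or untranslated exons. Within 1000 bp of the 5′ end lay 4 of 26 control and 6 of 28 Wtap-BKO peaks, or 15.4% and 21.4%. This was against 12.8% and 14.6% of all peaks with a placed gene. The higher Wtap-BKO share did not hold within 2000 bp of that end. There the counts were 7 of 26 and 7 of 28 (26.9% and 25%), against 17.3% and 19.3% of all peaks. Within 1000 bp of the 3′ end lay 1 peak of these genes in each list (3.85% and 3.57%), against 23.1% and 20.6% of all peaks. In both lists that peak was the last one on Irs2.

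**Figure D3:**
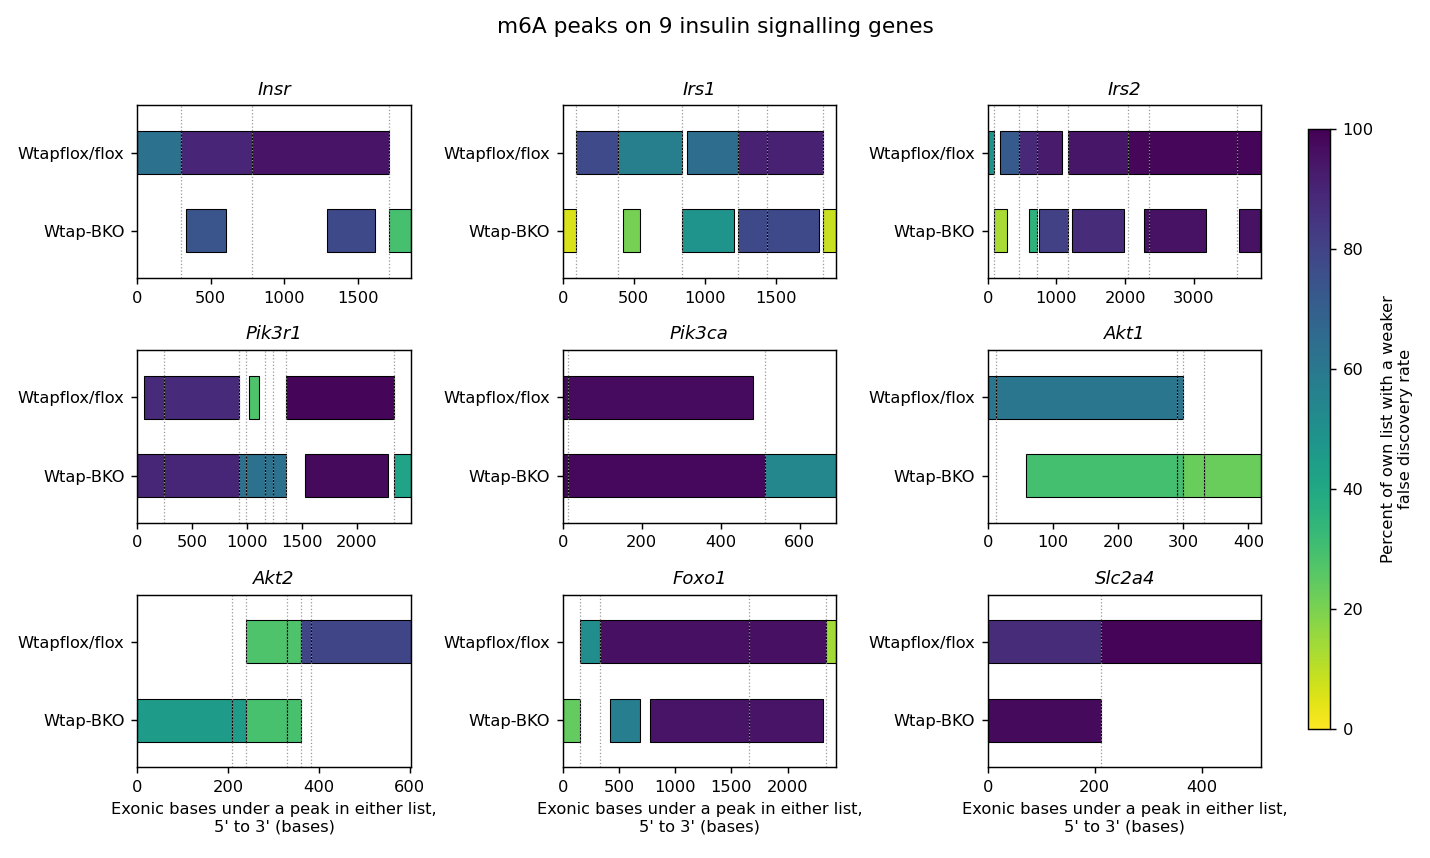
Peaks of the 9 genes along the exonic bases that lie under a peak in either list, joined from 5′ to 3′ (x axis, bases), with the control row above the Wtap-BKO row, colour for the percent of the own list with a weaker FDR, and dotted lines where joined stretches are apart in the genome. Slc2a4 has its second peak in the upper row only, Foxo1 has 1 long upper peak over 2 lower ones, and Pik3ca and Akt1 each have an added lower peak at the 3′ side.

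Insr (ENSMUSG00000005534, chr8:3150922-3279649, minus strand) encodes the insulin receptor. Its 3 control peaks covered 1709 bases and its 3 Wtap-BKO peaks 752, of which 601 were shared, so 35.2% of the control bases stayed under a peak. The most upstream control peak, chr8:3258475-3258774, lay 21025 bp from the 5′ end, had a log10 FDR of -12.6, stronger than 62.5% of the control list, and was not found in Wtap-BKO. This region of the receptor transcript was thus called in the control list alone. The middle control peak, chr8:3155440-3155919, had a log10 FDR of -51.9 and a fold of 8.46 over 480 bases. The Wtap-BKO peak on it, chr8:3155619-3155889, had -15.1 and 3.52 over 271 bases and lay wholly inside it. In rank the pair went from stronger than 89.8% to stronger than 74.2% of the own list. The last control peak, chr8:3153553-3154481, was the longest of Insr at 929 bases, with a log10 FDR of -87.1 and a fold of 7.73. Its Wtap-BKO counterpart, chr8:3153643-3153972, kept 330 of these bases at -17.7 and 2.71. The lost bases were mostly upstream, 509 on the 5′ side and 90 on the 3′ side. Wtap-BKO had 1 further short peak, chr8:3151906-3152056, at a log10 FDR of -3.73, 1059 bp from the 3′ end.

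Irs1 (ENSMUSG00000055980, chr1:82233105-82291439, minus strand) encodes a docking protein that the receptor phosphorylates. It had 4 control and 5 Wtap-BKO peaks over 1713 and 1234 bases. The first control peak, chr1:82289497-82289797, lay 1792 bp from the 5′ end and had a fold of 86.2, the highest of the 26 control peaks and higher than 99.8% of the control list, with a log10 FDR of -24.6. No Wtap-BKO peak lay on it. Peaks at least as strong in FDR lacked a counterpart in 398 of 4145 cases over the control list (9.60%). The other 3 control peaks all had a weaker and less enriched counterpart. Their log10 FDR was -10.2, -13.8 and -58.1 in the control list and -3.06, -5.97 and -17.9 in Wtap-BKO, in order from 5′ to 3′. Their folds of 5.87, 7.87 and 13.8 compared with 3.70, 5.50 and 6.25. The last of these was the strongest Irs1 peak in both lists, chr1:82237208-82286979 in controls, read across an intron in 2 blocks, and 570 of its 600 bases were shared. The 2 Wtap-BKO peaks without a control counterpart were near the gene's ends, chr1:82290936-82291026 at 458 bp from the 5′ end and chr1:82234180-82234270 at 1120 bp from the 3′ end, both 91 bases long with log10 FDRs of -2.12 and -2.30. They were stronger than 5.63% and 8.50% of the Wtap-BKO list, and the latter lay opposite a peak of Gm9747 on the other strand.

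Irs2 (ENSMUSG00000038894, chr8:10984681-11008929, minus strand) encodes the second main substrate of the receptor and had the most peaks of the 9 genes, 7 in controls and 6 in Wtap-BKO. They covered 3812 and 2673 bases with 2494 in common. From 5′ to 3′ each of the 7 control peaks was stronger than the one before it, with log10 FDRs of -7.52, -19.1, -46.6, -69.2, -84.1, -205 and -217. The first, chr8:11008368-11008458, was the only one not found in Wtap-BKO. The 6 others had counterparts in the same order of strength, at -2.55, -4.31, -20.3, -31.2, -68.2 and -69.8, each weaker than the control peak on the same bases. Fold was lower in Wtap-BKO in 5 of these 6 pairs, with 3.62, 3.95, 6.05, 12.5 and 7.83 in controls against 2.16, 2.06, 3.85, 6.47 and 5.58. The pair on chr8:11005252-11006121 was the exception at 5.36 and 5.41. The strongest peak, chr8:10985071-10985430, was the nearest to the 3′ end, at 569 bp, and its rank moved little, from stronger than 98.5% to stronger than 95.7% of the own list. Rank shifts were wide at the 5′ side, where the second peak went from 72.2% to 13.3% and the third from 88.4% to 35.8%. All 6 Wtap-BKO peaks of Irs2 lay on control peaks.

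Pik3r1 (ENSMUSG00000041417, chr13:101680761-101768217, minus strand) encodes the regulatory PI3K subunit that binds phosphorylated substrates. All 3 of its control peaks were found in Wtap-BKO, and covered bases were 1953 and 2254 with 1713 shared. The first control peak, chr13:101757350-101768157, reached over the 5′ exons in 2 blocks with a log10 FDR of -45.8 and a fold of 18.4. Its counterpart covered 931 bases against 871 and had -34.9 and 8.85, yet its rank was close, stronger than 88.1% of the control and 89.2% of the Wtap-BKO list. The short second peak, chr13:101687183-101687273, of 91 bases and log10 FDR -3.93 faced a Wtap-BKO peak of 421 bases in 4 blocks at -9.69, with folds of 2.41 and 3.29. This was the only pair besides the 5′ Slc2a4 peak in which the Wtap-BKO side was stronger by FDR. The third, chr13:101684072-101685062, had a log10 FDR of -222, the second strongest of the 26, against -95.1 in Wtap-BKO, with folds of 14.4 and 6.47 and 751 of 991 bases shared. The further Wtap-BKO peak, chr13:101683532-101683682, had no control counterpart and a log10 FDR of -5.04.

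Pik3ca (ENSMUSG00000027665, chr3:32397065-32466112, plus strand) encodes the catalytic PI3K subunit. Its single control peak, chr3:32461836-32463028, had a log10 FDR of -138 and a fold of 19.9, and all 481 of its bases were under the Wtap-BKO peak, which had -116 and 10.3 over 511 bases. By FDR rank the pair stood close, stronger than 97.2% and 98.0% of the own list. Wtap-BKO had 1 further peak downstream, chr3:32463388-32463568, with a log10 FDR of -7.12 and a fold of 2.83, the strongest by FDR of the 8 Wtap-BKO peaks without a control counterpart. Among Wtap-BKO peaks at least that strong, 889 of 8624 (10.3%) had none.

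Akt1 (ENSMUSG00000001729, chr12:112653821-112674884, minus strand) and Akt2 (ENSMUSG00000004056, chr7:27591552-27640826, plus strand) encode the AKT kinases, AKT2 being the form best known for glucose uptake. Both carried few and short peaks, 300 and 361 bases on Akt1 and 362 and 361 on Akt2 in control and Wtap-BKO. On Akt1 the control peak near the 5′ end, chr12:112673935-112674734, had a log10 FDR of -11.8 and a fold of 15.7, against -3.75 and 5.69 for the counterpart that held 241 of its 300 bases. Wtap-BKO had 1 more peak, chr12:112658590-112659160, at -3.22 with a fold of 1.88, the lowest of the 28. On Akt2 the equal totals hid different places, since only 121 bases were shared. A weak peak, chr7:27605848-27607273, had the same span in both lists, with log10 FDRs of -3.92 and -3.67 and folds of 2.27 and 2.0. The stronger control peak toward the 3′ end, chr7:27637422-27638280, at -27.2, was stronger than 79.4% of the control list but higher in fold (2.27) than 7.82% of it, and was not found in Wtap-BKO. As strong or stronger control peaks lacked a counterpart in 361 of 3782 cases (9.55%). Wtap-BKO instead had a peak at the 5′ end, chr7:27591672-27592399, 239 bp from it, at -5.51 and a fold of 3.92.

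Foxo1 (ENSMUSG00000044167, chr3:52268337-52350109, plus strand) encodes the transcription factor that AKT keeps out of the nucleus. Its main control peak, chr3:52345061-52347675, was the longest of the 26 at 2010 bases in 2 blocks, with a log10 FDR of -110 and a fold of 82.4, higher than 99.8% of the control list. In Wtap-BKO these bases lay under 2 peaks. The larger, chr3:52345511-52347645, had -60.9 and a fold of 6.90, and the smaller upstream one, chr3:52345151-52345421, had -8.12 and 2.85. They kept 1801 of the 2010 bases, and the bases left out were 90 on the 5′ side, 89 between the peaks and 30 on the 3′ side. Fold thus differed more than coverage at this place, while the FDR rank of the larger peak stayed close, 96.1% and 94.6%. Near the 5′ end each list had 1 peak that the other lacked, chr3:52268996-52269175 at -7.98 in controls and chr3:52268426-52268576 at -3.27 in Wtap-BKO. A weak control peak downstream, chr3:52348454-52348544, at -2.77, was not found either.

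Slc2a4 (ENSMUSG00000018566, chr11:69942286-69948216, minus strand) encodes GLUT4, and its pair of control peaks differed from Wtap-BKO in opposite directions. The 5′ peak, chr11:69947978-69948188, lay 133 bp from the 5′ end with the same 211 bases in both lists. Its log10 FDR was -44.7 in controls and -103 in Wtap-BKO, its fold 3.09 and 4.63, and its rank went from stronger than 87.8% to stronger than 97.7% of the own list. It was the only control peak of the 9 genes under 1e-20 whose counterpart was stronger by FDR. The downstream peak, chr11:69943258-69943558, of 301 bases and 1122 bp from the 3′ end, had a log10 FDR of -254 and a fold of 3.64, and no Wtap-BKO peak lay on it. It was stronger by FDR than 98.8% of the control list, but its fold was higher than only 24.2% of it. Of the 215 control peaks with an FDR at least as strong, 15 lacked a Wtap-BKO counterpart (6.98%, 95% Wilson interval 4.27 to 11.2). GLUT4 is also made in skeletal muscle, whose marker genes with a peak numbered 6 in controls and 15 in Wtap-BKO. The part of muscle RNA in the Slc2a4 peaks was not tested.

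Beyond the 9 genes, 74 other genes of the insulin pathway gave a wider picture. Of these, 57 had a control peak, 58 a Wtap-BKO peak and 53 both, and 12 had none, among them Irs4, Pik3r2 and Foxo6. Their covered bases were 40216 and 35607, and 34 of the 53 had fewer bases in Wtap-BKO and 18 more. Among the 123 control peaks 31 were not found (25.2%), and among the 127 Wtap-BKO peaks 34 (26.8%). These lay on 22 of 57 and 26 of 58 genes (38.6% and 44.8%), below the 45.7% and 47.5% of all symbols. Median ratios of Wtap-BKO to control bases were 0.914 for the wider list, 0.856 for the 9 core genes and 0.933 over all symbols.

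By role, the 14 other receptors and adaptors had 4 of 27 control and 5 of 28 Wtap-BKO peaks without a counterpart. The 5 other PI3K subunits had 1 of 6 and 2 of 6, and the 8 kinases and partners around AKT (PDK1, atypical protein kinase C and mTORC2) 3 of 7 and 1 of 6. The 15 inhibitors, such as phosphatases and TRIB proteins, had 4 of 30 control and 15 of 41 Wtap-BKO peaks unmatched (13.3% and 36.6%), over 10291 and 10868 bases. Over the whole lists 32.2% of control and 32% of Wtap-BKO peaks were unmatched. By peaks, the Wtap-BKO share on inhibitors was thus near that of the list, and the control share was lower. By genes, 10 of 13 inhibitors had an unmatched Wtap-BKO peak (76.9%), beside 47.5% of all symbols. An unmatched control peak lay on 3 of 12 (25%), beside 45.7%. The 19 targets of AKT had 11 of 30 and 8 of 27, and the 13 genes of glucose uptake 8 of 23 and 3 of 19. As shares, unmatched control peaks were 36.7% on the targets and 34.8% on the glucose uptake genes, near the 32.2% of all control peaks. Unmatched Wtap-BKO peaks were 29.6% and 15.8%, the latter below the 32% of all Wtap-BKO peaks. No difference between roles was tested.

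**Figure D4:**
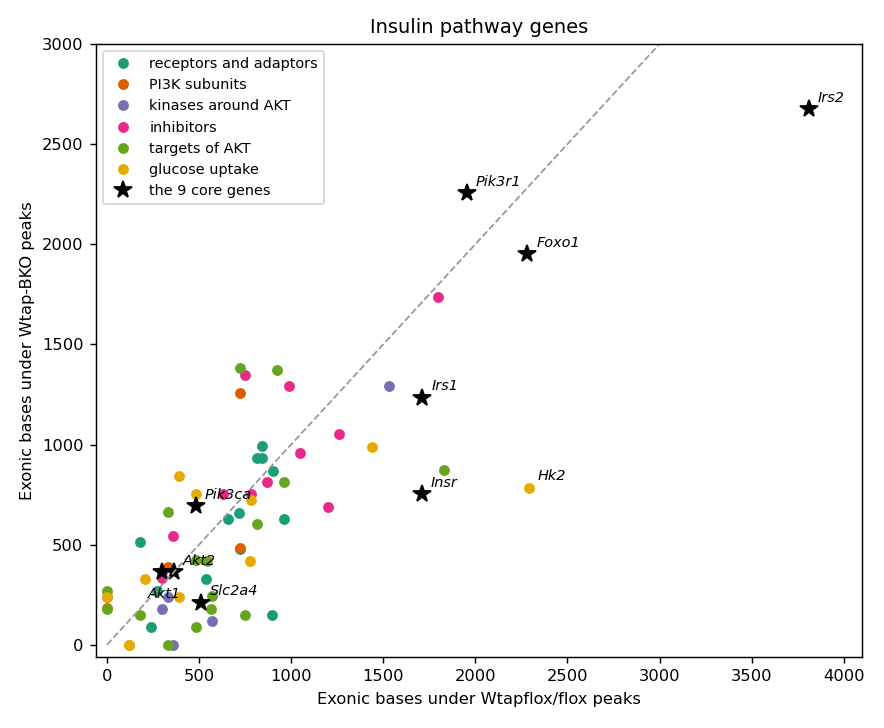
Exonic bases under control peaks (x axis) and under Wtap-BKO peaks (y axis) for the 9 core genes (stars) and the 74 other insulin pathway genes (dots, coloured by role, 1 pooled sample per genotype), with a dashed line of equal coverage. Irs2 (3812 and 2673 bases) lies farthest right, Insr, Irs1, Foxo1 and Slc2a4 lie below the line with it, Pik3r1, Pik3ca and Akt1 lie above it, and Hk2 is the dot farthest below it.

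Paralogs of the members differed from one another. Irs3, another receptor substrate, had its stronger peak at a log10 FDR of -99.4 and a fold of 14.1 in controls and -13.6 and 2.50 in Wtap-BKO, the same direction as Irs1 and Irs2. Foxo4 had 1 control peak at -114 with 2 Wtap-BKO peaks on it at -23.6 and -17.9, a split also seen on Foxo1. Such splits were not particular to these genes. They were seen in 1 of 26 control peaks of the core genes, beside 6.08% of all 18400 control peaks. Foxo3 and Igf1r kept all 3 of their control peaks. The strongest Foxo3 peak by FDR had a higher fold in Wtap-BKO, 16.8 in controls and 54.6 in Wtap-BKO. Its log10 FDR was weaker there, at -41.5 in controls and -27.9 in Wtap-BKO. Slc2a1, the basal glucose transporter GLUT1, kept both of its peaks, the stronger at -25.2 in controls and -28.0 in Wtap-BKO, with folds of 26.6 and 11.5. The PI3K subunits Pik3cb and Pik3cd had Wtap-BKO peaks of stronger FDR. On Pik3cb the FDR was -13.6 in controls and -29.6 in Wtap-BKO, while the fold was lower in Wtap-BKO, at 8.89 and 6.17. On Pik3cd control peaks at -6.34 and -7.00, with folds of 18.0 and 14.2, lay under 1 Wtap-BKO peak at -45.6 with a fold of 29.5.

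Peaks in 1 list alone were found on Mlst8, Tsc2, Akt1s1 and Exoc7 in controls and on Pik3r3, Grb14, Rheb, Srebf1 and Snap23 in Wtap-BKO. These genes were 4 of the 57 with a control peak and 5 of the 58 with a Wtap-BKO peak. Over all symbols the shares were higher, at 15.5% and 15.3%. The strongest peaks on these genes were that of Mlst8, a subunit shared by the mTOR complexes, at a log10 FDR of -15.6, and that of Grb14, an inhibitor of the receptor, at -10.8. Hk2, the hexokinase that traps glucose after uptake, had 8 control peaks over 2289 bases, 4 of them not found (the last 2 overlap each other), and 5 Wtap-BKO peaks over 785 bases. Its strongest control peak, at -125, met a Wtap-BKO peak of at best -6.53. Phlpp1 and Trib2, inhibitors that act on AKT, each had 4 control and 5 Wtap-BKO peaks. The strongest Phlpp1 peak had log10 FDRs of -75.2 and -76.3 and folds of 11.3 and 9.97. That of Trib2 had close FDRs, -37.9 and -40.0, but a lower fold in Wtap-BKO, 35.6 against 12.5.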

How the data were processed

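iBAT of Wtapflox/flox and Wtap-BKO mice was profiled by MeRIP-seq with 150 bp paired reads, 1 pooled IP and 1 pooled input per genotype and, by the methods, 8 mice in a pool. Per the labels, submitters' processing notes list fastp 0.19.11, BWA 0.7.12, HOMER 4.9.1 and GRCm38.p6, with no role given. The study's methods name MACS2, while the block layout of the lists is that of exomePeak, so the caller is not settled. The authors called peaks per genotype and filtered them at an FDR of 0.05. The deposited p-value of each peak is the authors' own, the 2 deposited score columns give p-value and FDR on a log10 scale, and the deposited fold is the ratio of IP over input within a genotype, with its scaling not described in the sources used here. FDR was given as 0 for 147 Wtapflox/flox and 83 Wtap-BKO peaks, which ranked first, and 5 and 3 duplicate rows, none on the core genes, were kept.

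Peaks were matched in Python 3.11.15 with pandas 2.3.3, numpy 2.4.6, scipy 1.17.1 and intervaltree 3.1.0, and drawn with matplotlib 3.10.9. A match was at least 1 shared exonic base on the same strand with a peak of any gene, and the counterpart was the peak sharing most bases. The matching was tested on simulated data. Ranks are the percent of peaks in the own list with a weaker FDR or a lower fold. Wilson 95% intervals cover counting error only. Depth is unknown. Gene spans came from the RefSeq table of GRCm38.p6, which held all 9 symbols. Genes named are the 9 members with every peak and, of 74 other pathway genes in 6 roles, the paralogs of members, those with peaks in 1 list and the 3 with the most peaks. Marker lists were brown adipocyte, macrophage, lymphocyte, fibroblast and skeletal muscle. Members and lists were chosen with earlier results of these data known. The alternatives were stricter FDR limits, at least 50% of the bases shared, a peak within 100 bp, either strand, the whole span with introns, and any peak on the same gene. Sequences were not analysed here, and some members of the wider lists are not reported here by name.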

Additional observations from a re-analysis of the deposited data

How the results depend on the processing

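No paired analysis was possible because each genotype is 1 pooled sample without a replicate, and for the same reason no replicate could be left out. Of 49 alternative values, 35 stayed within 1.5 times the reported count or inside the 95% interval of the reported share. That interval is wide for the shares of peaks, since the peaks are few. For the share of control bases it is narrow, 65.4% to 67.0%, because each base was counted as a separate case though neighbouring bases are not independent. With an FDR under 1e-05 in both lists, 3 core genes had an unmatched Wtap-BKO peak in place of 7, while 7 had an unmatched control peak in place of 6, and 61.6% of the control bases were shared in place of 66.2%. With only the peaks looked up limited to 1e-05, 3 of 8 core genes had an unmatched Wtap-BKO peak, beside 21.7% of all symbols. At that setting 6 of 9 core genes had an unmatched control peak, beside 28.5%. Of the other pathway genes, 10 in place of 26 had an unmatched Wtap-BKO peak and 14 in place of 22 an unmatched control peak. At 1e-10, limits chosen after the data were seen, no core gene (0 of 7) had an unmatched Wtap-BKO peak and 4 of 9 had an unmatched control peak when the other list was not limited, with 0 of 12 and 4 of 21 peaks unmatched beside 6.44% and 14.4% of all such peaks. With both lists limited to 1e-10, 100% of Wtap-BKO peaks (12 of 12) and 57.1% of control peaks (12 of 21) were found, beside 73.8% and 61.8% of all such peaks. Counting any peak on the same gene as a match left 0 core genes with an unmatched peak in either direction, 100% of both kinds of peak found, and 5 and 4 other pathway genes with an unmatched Wtap-BKO or control peak. Counting introns inside a peak's span gave 94.1% of control bases shared. Under the 50% rule, 57.7% of control peaks were found in place of 73.1%, and 67.9% of Wtap-BKO peaks in place of 71.4%. No whole-list value is given beside the 50% rule shares or the shares of bases at 61.6% and 94.1%. These shifts therefore cannot be read as particular to the core genes. The unknown depth limits every count: weak peaks near the FDR limit can enter or leave a list, and all 8 unmatched Wtap-BKO peaks had a log10 FDR of -7.12 or weaker.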
